A study of Bos taurus with 8 samples.

Results

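The cytotoxic granule genes described here are GNLY, PRF1, GZMA, GZMB, CTSW and NKG7. They were chosen by name, and the 6 names took 7 of the 21861 gene rows of the scRNA-seq tables. GNLY is ENSBTAG00000053497, PRF1 is ENSBTAG00000001008, GZMA is ENSBTAG00000021958, CTSW is ENSBTAG00000020773 and NKG7 is ENSBTAG00000009137. GZMB stood in 2 rows, ENSBTAG00000053015 and ENSBTAG00000010057, whose counts were added. Blood of 4 female lactating Holstein cattle, each 2 years old, was pooled and divided into 4 parts. One was left without lipopolysaccharide (LPS, the outer membrane component of Gram-negative bacteria that is sensed through TLR4) and the others received LPS at 2 µg/ml at 37 °C for 2 h, 4 h or 8 h. Mononuclear cells of each part gave 1 scRNA-seq library and 1 scATAC-seq library. With 1 library per treatment and assay and with the animals pooled, a difference between treatments could not be set against a spread of replicates, no p-value was computed, and a library effect cannot be told apart from an effect of LPS. No incubation time is given for the part without LPS, so LPS and time in culture are not separated either.

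Natural killer (NK) cells and cytotoxic CD8 T cells kill infected or transformed cells by releasing the content of secretory granules onto them. Perforin, encoded by PRF1, opens the target cell membrane, and the granzymes, serine proteases that include those encoded by GZMA and GZMB, enter and start cell death. Granulysin, encoded by GNLY and known as NK-lysin in cattle, is a small peptide that lyses bacterial membranes. CTSW encodes cathepsin W, a papain-like protease of NK and CD8 T cells, and NKG7 encodes a membrane protein of the granules that takes part in their release.

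The genes were followed in 4 overlapping gates of cells. NCR1+ CD3E-zero cells (NCR1 encodes the NK cell receptor NKp46) numbered 65, 106, 98 and 40 in the libraries without LPS and with LPS for 2 h, 4 h and 8 h. CD8B+ cells numbered 574, 709, 552 and 278 in the same order, CD4+ cells 1335, 1682, 1257 and 602, and cells with a UMI of a WC1 gene, the scavenger receptors of bovine γδ T cells, 339, 321, 237 and 148. MS4A1+ cells without CD3E or NCR1 were taken as B cells, which should lack these transcripts, and gave the background level. Levels are in CPM, the unique molecular identifiers (UMIs) of a gene divided by all UMIs of the same gate and library and multiplied by 1000000. All intervals are 95% intervals, exact Poisson for levels and exact binomial for shares of cells, and they cover counting error only. Log2 ratios to no LPS compare CPM + 1.

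The deposited tables held 3860 to 10429 barcodes and 30902952 to 63770426 UMIs per library. Limits on genes, UMIs and mitochondrial UMIs left 3411 to 9865 cells with medians of 3997 to 4757 UMIs. Pairs of libraries shared 8 to 24 barcodes, at most 0.363% of the smaller library. NCR1+ CD3E-zero cells carried 9 of 9 listed NK cell markers, at 1013 to 1312 CPM summed, against 203 to 317 CPM in CD8B+ cells. NCR1 is on this list, so its detection and its part of the sum were set by the gate. The same list reached 940 to 1892 CPM in CD14+ cells, where TYROBP, which monocytes also express, made up 901 to 1851 CPM and NCR1 was at 0 by the gate. The listed T cell markers reached 213 to 356 CPM in NCR1+ CD3E-zero cells and 1139 to 1349 CPM in CD8B+ cells, with CD3E at 0 in the former by the gate. B cell markers in NCR1+ CD3E-zero cells summed to 12.2 CPM without LPS and to 103, 85.0 and 43.6 CPM at 2 h, 4 h and 8 h. The monocyte markers summed to 170, 23.6, 60.7 and 21.8 CPM there, and the neutrophil markers to 192, 14.5, 108 and 90.8 CPM. Without LPS and at 2 h these neutrophil sums were of S100A8 and S100A9 alone, since CSF3R and CXCR2 had no UMI. MS4A1+ cells held 2260 to 2867 CPM of the B cell markers. CD14+ cells held 2401 to 4733 CPM of the monocyte markers and 6333 to 8746 CPM of the neutrophil markers. MS4A1 is among the B cell markers and CD14 among the monocyte markers, so these gates set part of their own sums. In CD8B+ cells the monocyte markers summed to 96.6, 35.0, 33.7 and 39.4 CPM, the neutrophil markers to 154, 160, 52.1 and 135 CPM, and the B cell markers to 171, 116, 95.2 and 158 CPM. The neutrophil sum of CD8B+ cells without LPS was also of S100A8 and S100A9 alone. WC1+ cells held 518 to 594 CPM of B cell markers, all 8 of which were detected. MS4A1+ cells, from which CD14+ cells were not excluded, also held 489, 146, 99.7 and 108 CPM of monocyte markers. Their neutrophil markers summed to 1268, 307, 217 and 297 CPM, so the background was not B cell RNA alone and differed between libraries. The part of these other cells and of doublets, which were not removed, in the results below was not tested.

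Perforin, cathepsin W and NKG7 transcripts marked most NCR1+ CD3E-zero cells in every library, and their levels there differed by less than 2-fold between each LPS library and the one without. PRF1 had 362 CPM without LPS (interval 300 to 433), 387 (336 to 442) at 2 h, 387 (338 to 441) at 4 h and 349 (282 to 426) at 8 h. The 4 intervals overlapped, and the log2 ratios to no LPS were 0.09, 0.10 and -0.05. A PRF1 UMI was found in 69.2%, 76.4%, 69.4% and 75.0% of the cells at median depths of 4621, 4678, 5422 and 6891.5 UMIs per cell. Among MS4A1+ cells the shares were 2.78%, 2.60%, 1.63% and 1.73% at median depths of 3930, 4343, 5105 and 5120.5 UMIs. After thinning each cell to 1000 UMIs, averaged over 20 draws, the PRF1 share of NCR1+ CD3E-zero cells was 32.2%, 34.1%, 31.5% and 26.0%. Without the upper limit of 3000 genes per cell, which concerned 9 NCR1+ CD3E-zero cells of the no LPS library, PRF1 stood at 226 CPM in that library and its log2 ratios were 0.55, 0.53 and 0.54.

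CTSW had 779 CPM in NCR1+ CD3E-zero cells without LPS (687 to 881), 595 (533 to 663) at 2 h, 595 (534 to 662) at 4 h and 774 (673 to 885) at 8 h. Among the cells within the gene limit, the 2 h and 4 h libraries were lower, with log2 ratios of -0.39 each. The 8 h library stood at the level without LPS (-0.01). These CTSW ratios depend on the limit. The 9 cells above it without LPS held 100 CTSW UMIs, beside 256 in the cells kept. Cells above it held 12, 18 and 0 at 2 h, 4 h and 8 h. The CTSW share of cells with a UMI lay between 70.4% and 75.0% in all 4 libraries, against 0.458% to 1.73% of MS4A1+ cells. NKG7 had 520 CPM without LPS (445 to 605), 349 (301 to 401) at 2 h, 371 (323 to 425) at 4 h and 345 (279 to 422) at 8 h, with log2 ratios of -0.58, -0.49 and -0.59. All 3 LPS libraries lay below the interval of the no LPS library. Without the upper limit on genes the no LPS level of NKG7 was 364 CPM and the log2 ratios were -0.27, -0.23 and -0.13. NKG7 was detected in 73.8%, 69.8%, 75.5% and 82.5% of NCR1+ CD3E-zero cells at the median depths given for PRF1, which were greatest at 8 h. After thinning to 1000 UMIs the NKG7 shares were 36.6%, 28.7%, 28.1% and 28.8%, lower in the 3 LPS libraries.

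GNLY was the most uneven of the abundant granule genes in NCR1+ CD3E-zero cells. It had 901 CPM without LPS (801 to 1010), 1376 (1280 to 1477) at 2 h, 1352 (1259 to 1450) at 4 h and 970 (857 to 1093) at 8 h. The 2 h and 4 h levels lay above the other 2, with log2 ratios of 0.61 (interval 0.42 to 0.81) and 0.59 (0.39 to 0.78), and the 8 h ratio was 0.11 (-0.14 to 0.35). The share of cells with a GNLY UMI was 36.9%, 45.3%, 25.5% and 25.0%, smaller than for PRF1, CTSW and NKG7 in every library. In the cells that had any, the median was 6, 11, 14 and 18 GNLY UMIs. The 5 cells with the most GNLY UMIs held 66.9%, 31.7%, 70.2% and 85.8% of them in the 4 libraries. A cell of the 4 h library held 277 of 779 GNLY UMIs. With the cell of most GNLY UMIs left out of each library, the levels were 690, 1286, 890 and 567 CPM and the log2 ratios 0.90, 0.37 and -0.28, so the 8 h ratio turned sign. MS4A1+ cells had 11.8, 11.6, 8.73 and 9.58 CPM of GNLY.

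**Figure D1:**
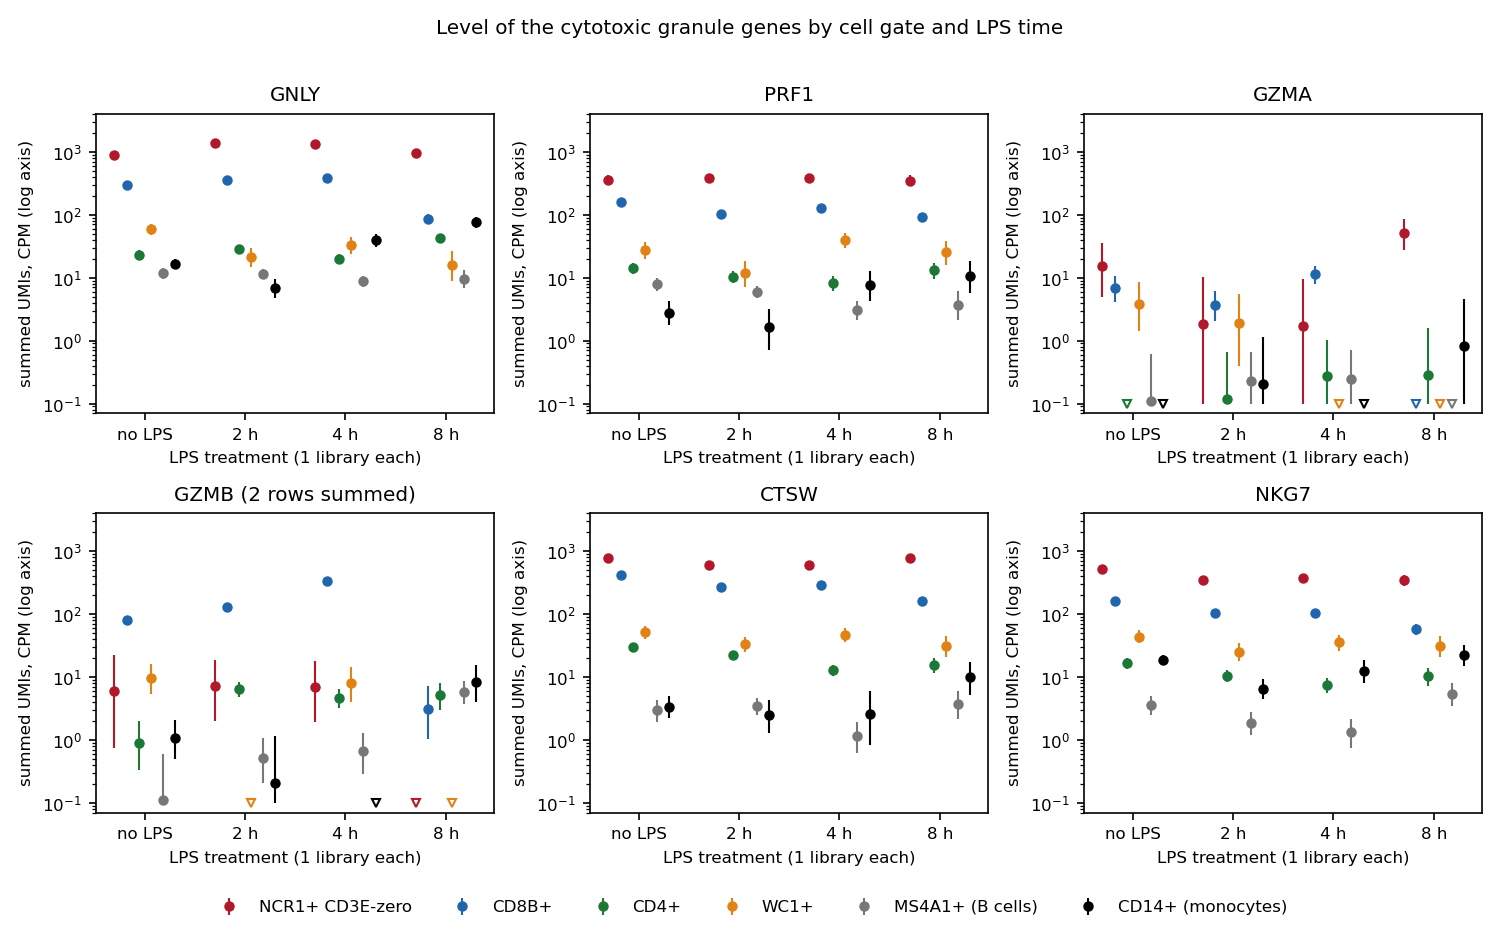
Level of each granule gene in CPM (log axis) by treatment in NCR1+ CD3E-zero, CD8B+, CD4+, WC1+, MS4A1+ and CD14+ cells, with exact 95% Poisson intervals as bars and open triangles at the bottom for 0 UMIs. GNLY, PRF1, CTSW and NKG7 were highest in NCR1+ CD3E-zero cells in all 4 libraries, while GZMB was highest in CD8B+ cells without LPS, at 2 h and at 4 h.

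The granzymes were scarce in the NCR1+ CD3E-zero gate. GZMA had 5, 1, 1 and 14 UMIs from no LPS to 8 h, and 13 of the 14 came from 1 cell. GZMB had 2, 4, 4 and 0 UMIs, those of each library in 1 cell and all on ENSBTAG00000053015. With 3 UMIs as the limit of a count of 0, the absence at 8 h allows up to 10.9 CPM. GZMA and GZMB were thus below the minimum of 20 UMIs over both libraries of a comparison, and 4 of the 6 granule genes could be read there. None of the 4 was past 2-fold in either direction at 2 h, 4 h or 8 h. Of all genes with at least 20 UMIs in the same cells, 5.23% were past 2-fold higher and 3.11% past 2-fold lower at 2 h. At 4 h these background shares were 5.71% and 3.36%, and at 8 h they were 4.03% and 3.93%. The median log2 ratio of the 6 granule genes was -0.15, -0.15 and -0.03, against 0.02, 0.02 and 0.01 for the 4153, 4254 and 3254 genes counted.

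In CD8B+ cells the granule genes were carried by a minority of the cells and were lower at 8 h than without LPS among the cells kept. PRF1 had 158 CPM without LPS (144 to 173), 103 (92.6 to 113) at 2 h, 126 (114 to 139) at 4 h and 92.0 (77.7 to 108) at 8 h. It was detected in 27.5%, 24%, 26.6% and 21.2% of the cells, whose median depths were 4717, 4890, 5350.5 and 5613.5 UMIs. All 3 LPS libraries were lower, with log2 ratios of -0.62, -0.33 and -0.78, none of them past 2-fold.

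CTSW had 418 CPM in CD8B+ cells without LPS (395 to 442), 268 (252 to 285) at 2 h, 284 (266 to 303) at 4 h and 160 (141 to 181) at 8 h. The log2 ratio was -0.64, -0.55 and -1.38 (-1.58 to -1.19 at 8 h), and the share of cells with a CTSW UMI went from 24.9% without LPS to 13.3% at 8 h. After thinning to 1000 UMIs the 2 shares were 16.4% and 6.73%. NKG7 had 163 CPM without LPS (149 to 178), 105 (95.1 to 116) at 2 h, 103 (92.2 to 115) at 4 h and 57.6 (46.4 to 70.6) at 8 h. The 2 h and 4 h levels of NKG7 were alike within their intervals and the 8 h level was the lowest, with log2 ratios of -0.63, -0.66 and -1.48 (-1.84 to -1.18 at 8 h).

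GNLY in CD8B+ cells had 295 CPM without LPS (276 to 316), 352 (333 to 371) at 2 h, 379 (358 to 401) at 4 h and 87.0 (73.1 to 103) at 8 h. Among the cells kept, the log2 ratios were 0.25 at 2 h, 0.36 at 4 h and -1.75 (-2.03 to -1.50) at 8 h. With the top cell of each library left out the levels were 269, 304, 261 and 69.2 CPM (0.18, -0.05 and -1.94), and without the upper limit on genes they were 469, 408, 504 and 454 CPM (-0.20, 0.10 and -0.05), so the sign of the 2 h and of the 4 h ratio depended on these choices. The share of cells with a GNLY UMI was 16.4%, 10.9%, 12.1% and 10.4%. The cell with the most held 82, 183, 382 and 29 GNLY UMIs in the 4 libraries.

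GZMB was spread widely over the libraries among the CD8B+ cells within the gene limit. It had 242 UMIs and 81.8 CPM without LPS (71.8 to 92.8), 484 UMIs and 128 CPM at 2 h (117 to 140), 1080 UMIs and 337 CPM at 4 h (317 to 358), and 5 UMIs and 3.13 CPM at 8 h (1.02 to 7.30). The log2 ratio was 0.64 (0.42 to 0.88) at 2 h and 2.03 (1.84 to 2.25) at 4 h. Only 33, 28, 26 and 5 CD8B+ cells had a GZMB UMI, that is 5.75%, 3.95%, 4.71% and 1.80%. The 5 cells with the most held 63.2%, 75.8% and 84.4% of the GZMB UMIs without LPS, at 2 h and at 4 h. A cell of the 4 h library with 5452 UMIs held 353 of GZMB, 382 of GNLY and 20 of GZMA. Without the cell of most GZMB UMIs in each library, the 4 h level was 227 CPM and its log2 ratio 1.77. In MS4A1+ cells GZMB had 1, 7, 8 and 25 UMIs, 18 of the 25 in 1 cell.

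The GZMB levels of both rows were higher at 2 h and 4 h and lower at 8 h than without LPS in these cells, by unequal amounts. ENSBTAG00000053015 had 120, 196, 302 and 3 UMIs in CD8B+ cells without LPS, at 2 h, 4 h and 8 h, and ENSBTAG00000010057 had 122, 288, 778 and 2. Both rows were detected together in 12, 14, 14 and 0 cells. RefSeq lists protein-coding genes without a name next to GZMB (LOC540321, LOC100139881, LOC505326 and LOC505658) and next to GNLY (LOC616323, synonym NK1). Their sequences were not used here, and whether reads were shared with GZMB, GNLY or between the GZMB rows was not tested. GZMA had 20, 14, 36 and 0 UMIs in CD8B+ cells, in 10, 7, 7 and 0 cells. Of the 36 at 4 h, 20 came from the cell with the most GZMB. The GZMA level without LPS was 3.60-fold the limit of 3 UMIs at 8 h, with the counting error of the former left out.

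**Figure D2:**
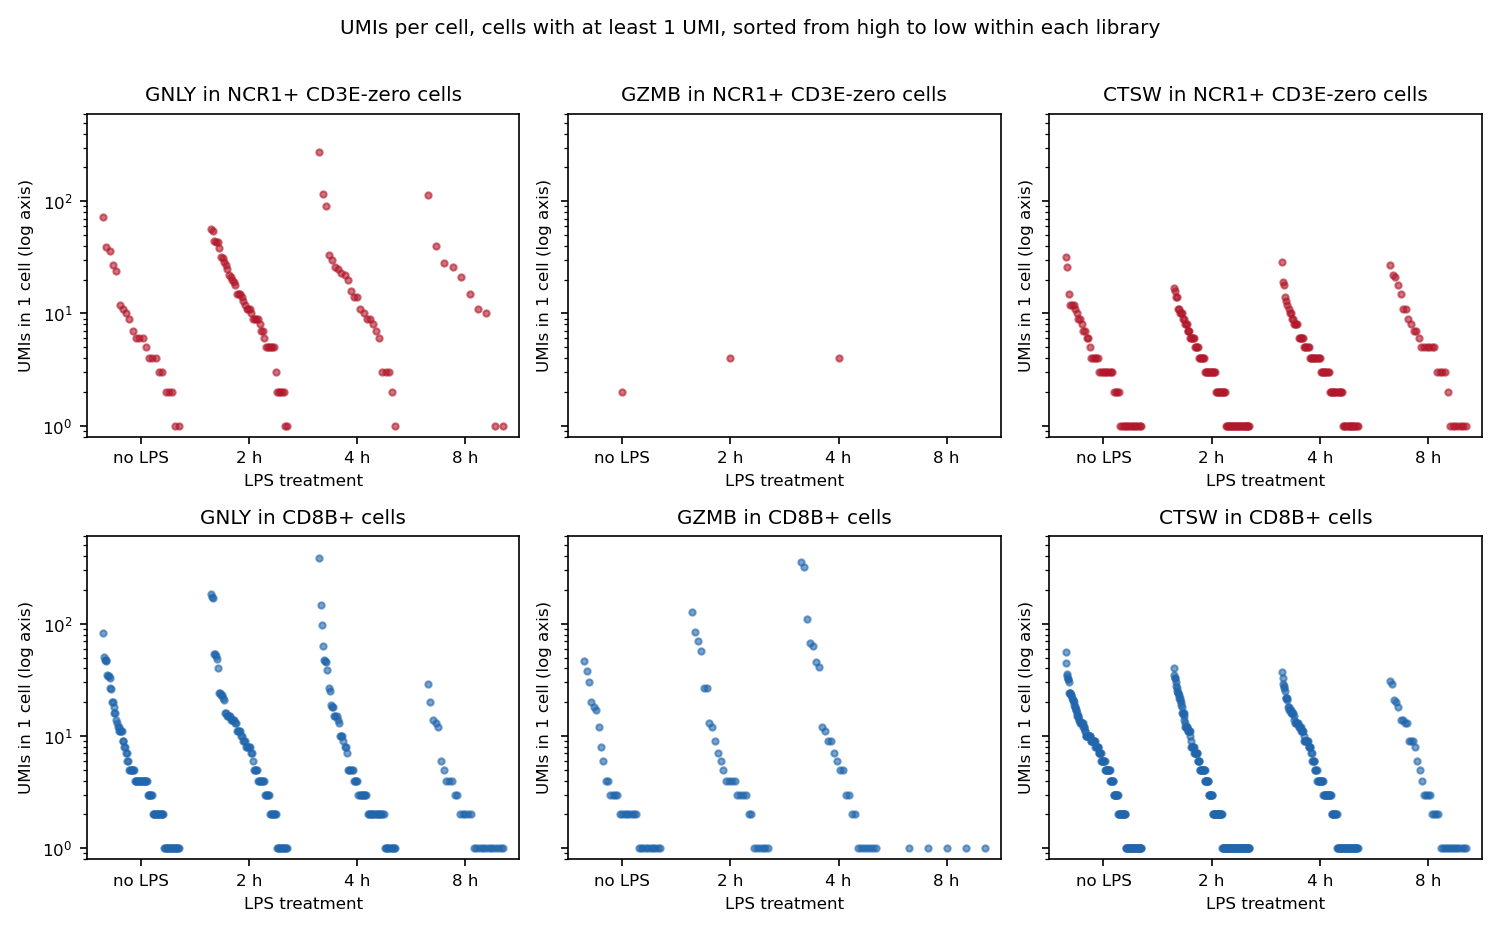
UMIs of GNLY, GZMB and CTSW in each cell with at least 1 UMI (log axis), sorted from high to low within each library, in NCR1+ CD3E-zero and CD8B+ cells. In CD8B+ cells at 4 h, 1 cell stands at 353 GZMB and 382 GNLY UMIs, and no GZMB-positive cell at 8 h holds more than 1.

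All 6 granule genes reached 20 UMIs over both libraries in CD8B+ cells. None was past 2-fold at 2 h, where 1.29% of 8621 genes were past 2-fold higher and 1.23% lower. GZMB alone was past 2-fold higher at 4 h and none was past 2-fold lower, with 1.42% and 1.6% of 8475 genes. At 8 h none was past 2-fold higher and 5 of 6 (GNLY, GZMA, GZMB, CTSW and NKG7) were past 2-fold lower, with 1.64% and 2.26% of 8037 genes. The median log2 ratio of the 6 genes was -0.62, 0.02 and -1.62, against 0.01, 0.02 and 0.03 over all genes counted.

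The 8 h values in CD8B+ cells depended on the upper limit of 3000 genes per cell. The 46 CD8B+ cells above it at 8 h held 1499 GNLY, 526 GZMB, 261 CTSW, 221 NKG7, 119 PRF1 and 11 GZMA UMIs. The 278 cells kept held 139 GNLY, 5 GZMB, 256 CTSW, 92 NKG7, 147 PRF1 and 0 GZMA UMIs, fewer than the cells above the limit for each gene but PRF1. Up to 473 GNLY and 248 GZMB UMIs were in 1 cell above it. Above the limit there were 61 cells without LPS, 62 at 2 h and 71 at 4 h. With these cells included, GNLY had 469 CPM without LPS and 454 at 8 h, a log2 ratio of -0.05, and GZMB had 139 and 147 CPM, a log2 ratio of 0.075. PRF1 then had 128 and 73.6 CPM (-0.79), CTSW 309 and 143 (-1.10), NKG7 171 and 86.7 (-0.97) and GZMA 19.9 and 3.05 (-2.37). CTSW and GZMA were then the 2 genes past 2-fold lower at 8 h. GZMB without the limit had 408 CPM at 2 h (1.54) and 353 CPM at 4 h (1.33), so it was past 2-fold higher at both times.

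**Figure D3:**
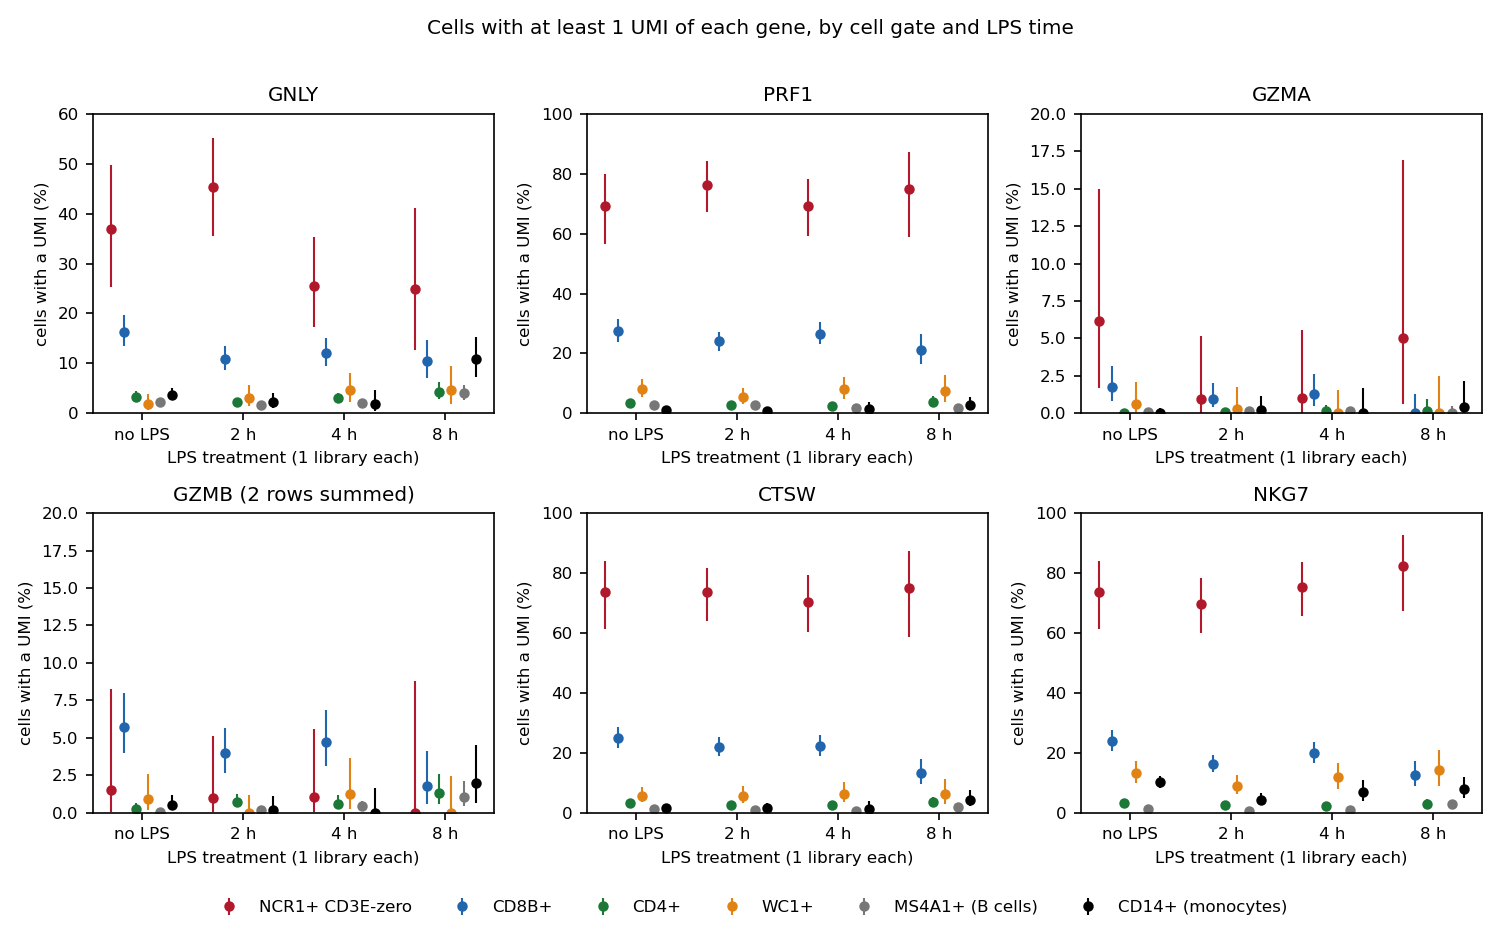
Share of cells with at least 1 UMI of each granule gene (percent) by treatment and gate, with exact binomial 95% intervals as bars and a separate y-axis range in each panel. PRF1, CTSW and NKG7 lie between 69.2% and 82.5% in NCR1+ CD3E-zero cells, between 12.6% and 27.5% in CD8B+ cells, and at no more than 2.80% in MS4A1+ cells.

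Within each library, GNLY, PRF1, CTSW and NKG7 had their highest level of the 4 gates in NCR1+ CD3E-zero cells and the next in CD8B+ cells. GNLY was 3.05-fold higher in NCR1+ CD3E-zero than in CD8B+ cells without LPS, and 3.91-fold, 3.56-fold and 11.1-fold higher at 2 h, 4 h and 8 h. PRF1 was 2.29-fold, 3.77-fold, 3.08-fold and 3.79-fold higher, CTSW 1.87-fold, 2.22-fold, 2.09-fold and 4.83-fold, and NKG7 3.20-fold, 3.31-fold, 3.60-fold and 5.99-fold. The larger folds at 8 h go with the lower CD8B+ levels among the cells within the gene limit. Without the limit the CD8B+ level of GNLY at 8 h was far higher, as given above, so the 11.1-fold describes the cells kept only. Against MS4A1+ cells, NCR1+ CD3E-zero cells had 46.1-fold to 127-fold more PRF1, 64.2-fold to 282-fold more NKG7, 173-fold to 516-fold more CTSW and 76.4-fold to 155-fold more GNLY. Counting all 6 genes, 5, 4, 4 and 5 had their highest level of the 4 gates in NCR1+ CD3E-zero cells, the exceptions being GZMB in each library and GZMA at 2 h and 4 h.

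CD4+ cells held little of these transcripts. PRF1 had 14.2, 10.4, 8.08 and 13.0 CPM there, NKG7 16.5, 10.5, 7.39 and 10.2, CTSW 30.4, 22.1, 12.8 and 15.6, and GNLY 23.1, 28.5, 20.1 and 42.5. GNLY was found in 3.30%, 2.32%, 3.02% and 4.32% of CD4+ cells, beside 2.19%, 1.64%, 2.04% and 4.00% of MS4A1+ cells. By level, GNLY was 1.96-fold, 2.46-fold, 2.30-fold and 4.43-fold that of MS4A1+ cells. The folds were 1.81, 1.76, 2.65 and 3.48 for PRF1 and 10.3, 6.44, 11.1 and 4.16 for CTSW. For NKG7 they were 4.57, 5.61, 5.61 and 1.90. The intervals of these folds all excluded equal levels. GZMB was 8.30-fold, 12.2-fold, 6.98-fold and, at 8 h, 0.872-fold. A single CD4+ cell of the 8 h library held 74 of its 150 GNLY UMIs. GZMB had 6 UMIs in CD4+ cells without LPS and 54, 33 and 18 with LPS, in 3, 12, 7 and 8 cells. Without the upper limit on genes, GNLY had 59.8, 60.7, 87.9 and 46.6 CPM in CD4+ cells, PRF1 15.6, 11.9, 18.4 and 11.9, and GZMB 5.15, 16.6, 22.9 and 48.1. The 4 h level of CTSW was then 36.7 CPM, and the 4 h ratios of PRF1 and CTSW were 0.22 and 0.33, above 0.

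WC1+ cells lay between CD8B+ and MS4A1+ cells for PRF1, CTSW and NKG7. NKG7 had 43.9, 25.1, 35.3 and 30.9 CPM and was detected in 13.3%, 9.03%, 11.8% and 14.2% of them at median depths of 3909, 4028, 4676 and 5315.5 UMIs, against 1.28%, 0.641%, 0.713% and 2.80% of MS4A1+ cells. PRF1 had 27.8, 11.9, 39.0 and 25.2 CPM and CTSW 51.0, 33.3, 46.3 and 30.9. The NKG7 intervals of the 4 libraries overlapped. GNLY had 91 UMIs in WC1+ cells without LPS, 82 of them in 1 cell, and 34, 45 and 14 with LPS. Its log2 ratios were -1.42, -0.81 and -1.81, and 1.34, 1.39 and 0.58 with the top cell of each library left out. GZMB had 15, 0, 11 and 0 UMIs and GZMA 6, 3, 0 and 0. Without the upper limit on genes, GZMB had 6.33, 56.9, 35.6 and 6.39 CPM in WC1+ cells, and GNLY had 112, 47.2, 174 and 52.0 CPM with log2 ratios of -1.23, 0.63 and -1.09.

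The 4 gates did not hold all of the granule transcripts. Of the GNLY UMIs of the no LPS library, 24.2% were in CD3E+ and 32.2% in CD3E-zero cells of none of the 4 gates. For PRF1 these shares were 29.0% and 22.1%, for CTSW 32.5% and 11.5%, and for NKG7 22.0% and 33.3%. GZMB differed from them, since CD8B+ cells held 62.1% of its 390 UMIs without LPS, 79.2% of 611 at 2 h, 87.1% of 1240 at 4 h and 6.76% of 74 at 8 h. In CD14+ cells GNLY reached 16.7, 6.94, 39.1 and 75.4 CPM, and at 8 h 10.9% of those cells had a GNLY UMI, at a median depth of 1706 UMIs.

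To see how the genes were combined within cells, the number of granule genes detected per cell was counted. At least 1 of the 6 was found in 98.5%, 97.2%, 99.0% and 97.5% of NCR1+ CD3E-zero cells, and at least 3 in 53.8%, 60.4%, 50.0% and 62.5%. In CD8B+ cells at least 3 were found in 18.8%, 13.1%, 16.3% and 7.91%, and in MS4A1+ cells in 0.268%, 0.200%, 0.0509% and 0.267%. After thinning to 1000 UMIs, at least 3 were found in 12.1%, 13.3%, 10.0% and 10.5% of NCR1+ CD3E-zero cells and in 7.21%, 4.48%, 5.32% and 2.51% of CD8B+ cells. All 6 together were seen in 2, 3, 4 and 0 CD8B+ cells.

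In CD8B+ cells the genes came together in the same cells. PRF1 was detected in 81.9% of GNLY-positive and 16.9% of GNLY-zero cells without LPS. With LPS the shares were 80.5% against 17.1% at 2 h, 89.6% against 17.9% at 4 h, and 62.1% against 16.5% at 8 h. CTSW was found in 83.0%, 83.1%, 86.6% and 55.2% of GNLY-positive cells and in 13.5%, 14.6%, 13.4% and 8.43% of GNLY-zero cells. The GNLY-positive cells had median depths of 5587, 6116, 5923 and 5568 UMIs and the others 4678.5, 4846, 5283 and 5614. After thinning to 1000 UMIs, the PRF1 shares were 48.3% and 7.09% without LPS and 37.3% and 5.40% at 8 h. GZMB followed the same division, at 23.4% and 2.29%, 31.2% and 0.633%, 28.4% and 1.44%, and 10.3% and 0.803% in the 4 libraries. The GZMB shares at 8 h rest on 5 UMIs, with no more than 1 in a cell. Cells are not replicates, so these shares describe 4 libraries.

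In NCR1+ CD3E-zero cells NKG7 was detected in 62.5% of GNLY-positive and 80.5% of GNLY-zero cells without LPS. With LPS the shares were 62.5% against 75.9% at 2 h, 80.0% against 74.0% at 4 h, and 80.0% against 83.3% at 8 h. PRF1 was detected in 79.2% and 63.4%, 87.5% and 67.2%, 92.0% and 61.6%, and 90.0% and 70.0%. After thinning to 1000 UMIs, the PRF1 shares were 43.6% and 28.2%, 45.9% and 26.9%, 51.8% and 26.1%, and 47.1% and 20.9%, higher in GNLY-positive cells in each library. The NKG7 shares were then 31.9% and 38.2%, 25.4% and 30.7%, 29.8% and 27.7%, and 34.2% and 27.4%, in no constant order. These groups held 10 to 73 cells.

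The genes with the profile most like each granule gene were sought over 24 profiles, 6 gates in 4 libraries. The profiles share libraries and gates share cells, so Pearson r of log2(CPM + 1) is a description. PRF1 was closest to KLRK1 (r = 0.960), the activating receptor NKG2D, then TMIGD2 (0.957) and EOMES (0.954), a transcription factor of NK and cytotoxic T cells. CTSW was closest to CD96 (0.972), KLRK1 (0.967) and TMIGD2 (0.965). NKG7 was closest to RAB27B (0.959), a small GTPase of secretory vesicles, ENSBTAG00000047449 (0.949) and MYO1F (0.946). GNLY was closest to ENSBTAG00000047449 (0.981), ENSBTAG00000009943 (0.954) and EOMES (0.953). GZMB stood apart, with ENSBTAG00000038080 (0.828), ENSBTAG00000010828 (0.794) and CD8A (0.791) closest and with r of 0.390 to 0.519 to the other granule genes. GZMA, with few UMIs, was closest to GNPDA1 (0.801), ENSBTAG00000009943 (0.778) and ENSBTAG00000049823 (0.772).

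Genes of the machinery that fills and releases the granules were also read in NCR1+ CD3E-zero cells. Of all genes counted there, 8.33%, 9.07% and 7.96% were past 2-fold in either direction at 2 h, 4 h and 8 h. The lists are too short for their counts to be told apart from these shares. Of 8 genes of granule processing and cargo, 6, 6 and 5 reached 20 UMIs at 2 h, 4 h and 8 h. Only LAMP3, a lysosomal membrane protein, was past 2-fold lower, with 82.2 CPM without LPS and 34.5, 48.6 and 32.7 CPM with LPS (log2 ratios -1.23, -0.75 and -1.30, from 9 to 28 UMIs per library). Of 10 genes of granule movement and release, such as RAB27A and UNC13D, 7, 7 and 6 could be read and 0 were past 2-fold at any time. Neither of the other granzymes with a row, GZMK and GZMM, reached 20 UMIs, and GZMH had no row by that name.

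Genes of receptors and their adaptors were read in the same cells. Of 12 activating receptor and adaptor genes, 10 could be read at each time, of which 1, 2 and 2 were past 2-fold lower and 0, 0 and 1 higher, beside background shares of 3.11%, 3.36% and 3.93% lower and 5.23%, 5.71% and 4.03% higher. KLRD1, the CD94 subunit of NK receptors, had 79.1 CPM without LPS and 27.2, 36.4 and 61.7 with LPS. NCR3, which encodes NKp30, had 231, 154, 153 and 98.1 CPM, and its log2 ratio at 8 h was -1.23 (-1.93 to -0.59). TYROBP, the adaptor DAP12 that monocytes also express, had 125, 107, 45.1 and 54.5 CPM, and the part of monocyte RNA, whose markers are given above, was not tested. CD2, an adhesion receptor, was higher in all 3 LPS libraries, with 57.8 CPM without LPS and 116, 101 and 120 with LPS.

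Among death ligands, TNFSF10, which encodes TRAIL, had 234 CPM without LPS and 220, 422 and 479 CPM at 2 h, 4 h and 8 h, with log2 ratios of -0.09, 0.85 and 1.03. IFNG, named here after its values were seen, had 0 UMIs without LPS and 92, 19 and 3 with LPS. Its 167 CPM at 2 h was 18.3-fold the limit of 3 UMIs without LPS, and its 4 h level was 3.61-fold that limit. Counting error of the LPS libraries is not in these folds. Of 8 transcription factors read, PRDM1 (33.5, 69.0, 57.3 and 43.6 CPM) and BHLHE40 (76.1, 158, 111 and 123 CPM) were past 2-fold higher at 2 h and ZEB2 (27.4, 34.5, 41.7 and 58.1 CPM) at 8 h. IL2RA, the IL-2 receptor α chain, had 97.4 CPM without LPS and 198, 153 and 254 with LPS, past 2-fold higher at 2 h and 8 h. It was the one past 2-fold of 6, 6 and 5 cytokine receptors read.

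**Figure D4:**
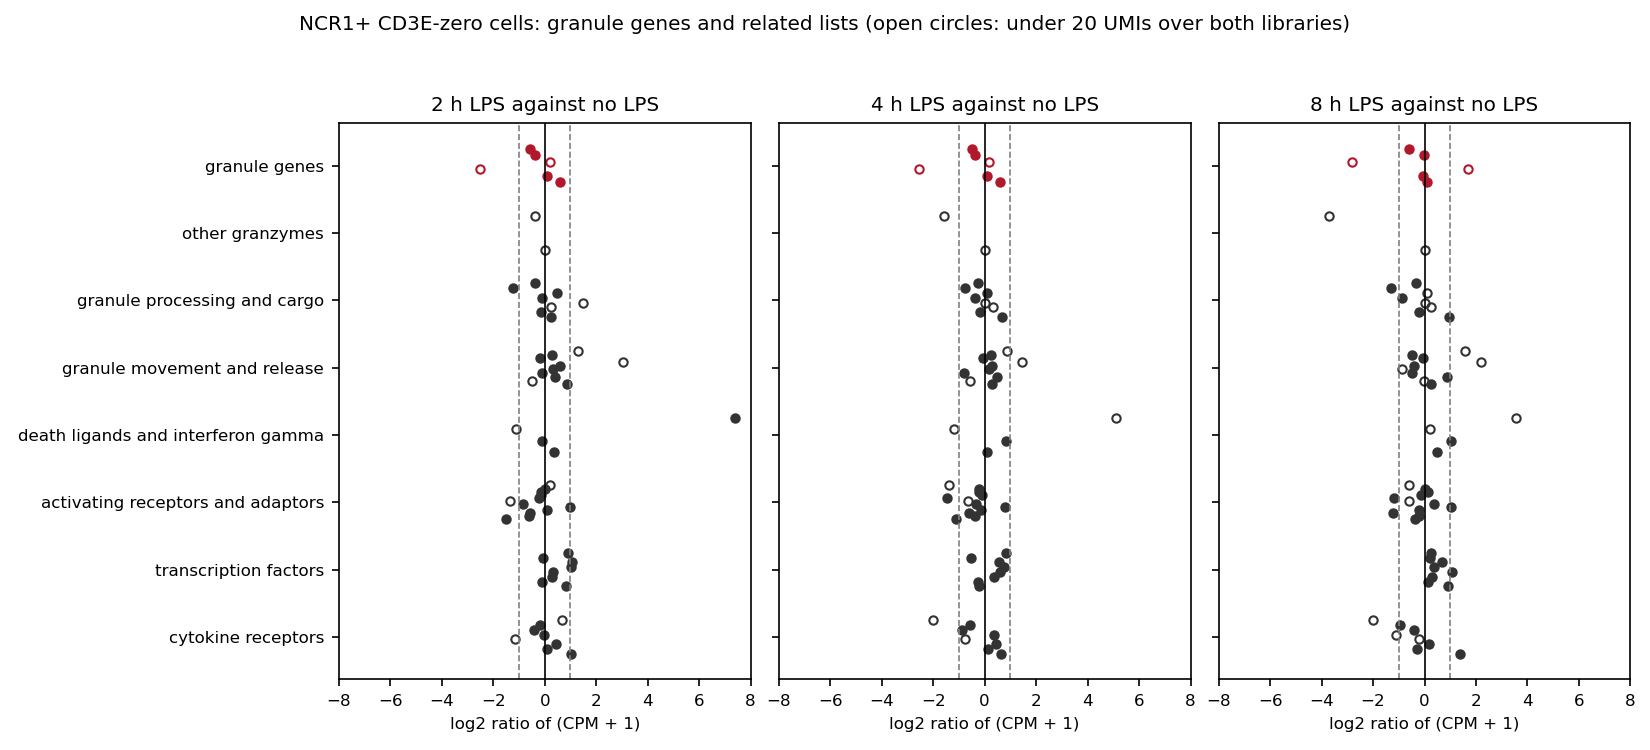
Log2 ratio of CPM + 1 to no LPS in NCR1+ CD3E-zero cells for the granule genes and 7 lists of related genes at 2 h, 4 h and 8 h, each point 1 gene, open where the gene had under 20 UMIs over both libraries, with dashed lines at 2-fold. GNLY, PRF1, CTSW and NKG7 stay between -0.59 and 0.61, while TNFSF10 reaches 1.03 and LAMP3 -1.30.

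In CD8B+ cells the same lists held 2, 0 and 1 genes past 2-fold higher and 2, 2 and 5 lower in the 3 LPS libraries. The background shares were 1.29%, 1.42% and 1.64% higher and 1.23%, 1.6% and 2.26% lower. At 2 h 2 other granzymes, 7 genes of granule processing and 10 of granule movement could be read. So could 4 death ligands with IFNG, 12 activating receptors and adaptors, 8 transcription factors and 7 cytokine receptors. At 4 h and 8 h 9 genes of granule movement could be read, and the other numbers were the same. IFNG had 22, 143, 32 and 4 UMIs, or 7.43, 37.9, 9.99 and 2.50 CPM, with a log2 ratio of 2.21 at 2 h and -1.27 at 8 h. STX11, a syntaxin needed for granule release, had 12.8 CPM without LPS and 30.5, 22.5 and 20.0 with LPS. GZMM had 46.0 CPM without LPS and 22.8, 26.9 and 23.2 with LPS, with log2 ratios of -0.98, -0.75 and -0.96. GZMK had 21, 12, 12 and 1 UMIs. IL2RB, a receptor chain for IL-2 and IL-15, had 121, 102, 128 and 24 UMIs and a log2 ratio of -1.39 at 8 h, past 2-fold lower together with IL18RAP, GZMK, LTA and IFNG. The list values are those of the cells within the gene limit, on which the 8 h ratios of GNLY and GZMB depended. How the list genes stood at 8 h without the limit is not given here. Of the activating receptors and adaptors, KLRD1 and TYROBP were past 2-fold lower at 2 h, TYROBP and FCER1G at 4 h, and CD226 was past 2-fold higher at 8 h. Of the lists of granule processing and of granule movement, 0 of 7 and 0 of 9 genes were past 2-fold at 8 h. Lists this short cannot be told apart from the background shares of 1.64% higher and 2.26% lower.

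The scATAC-seq tables give counts on genes per barcode, from open chromatin cut by a transposase. They summed to 975012 without LPS and to 30250143, 26837579 and 11957904 at 2 h, 4 h and 8 h, with medians of 213, 5171, 5205 and 2250 counts per barcode, so the no LPS library is far shallower. Between 88.7% and 93.8% of the values above 0 were even, so intervals were made from the counts divided by 2. For the granule genes the even share was 72.5% to 96.6% for PRF1 and NKG7, apart from NKG7 without LPS (40%), but 61.4% and 26.7% for CTSW and 51.9% and 16% for GZMA at 2 h and 4 h. Where it was low, dividing by 2 made the interval too wide. PRF1 and NKG7 had a row in all 4 tables, GZMA and CTSW at 2 h and 4 h only, and no row carried the GNLY or GZMB identifiers.

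PRF1 had 37, 1044, 854 and 263 counts without LPS, at 2 h, 4 h and 8 h, or 37.9 counts in 1000000 of the library (CPM, 21.9 to 58.4), 34.5 (31.6 to 37.6), 31.8 (28.9 to 35.0) and 22.0 (18.5 to 26.2). The 8 h level lay below those at 2 h and 4 h, and the no LPS interval overlapped all of them. NKG7 had 7, 540, 500 and 199 counts, or 7.18 CPM (2.24 to 21.0), 17.9 (15.8 to 20.1), 18.6 (16.4 to 21.1) and 16.6 (13.6 to 20.3), with overlapping intervals. CTSW had 150 counts at 2 h (4.96 CPM, 3.90 to 6.22) and 40 at 4 h (1.49 CPM, 0.910 to 2.30), and GZMA 43 and 29 counts.

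Barcodes were also gated by a count on a marker gene, which selects deep barcodes. The 31 barcodes of the 2 h library with a count on NCR1, a median of 15685 counts each, had 106 CPM on PRF1 (74.7 to 151) and 61.9 on NKG7 (38.8 to 98.0). Barcodes with a count on MS4A1 had 26.7 CPM on PRF1 (22.6 to 31.2) and 16.2 on NKG7 (13.1 to 19.9) in that library, at a median of 8594.5 counts. WC1 barcodes lay above MS4A1 barcodes at 2 h and 4 h, with 44.6 CPM on PRF1 (36.9 to 53.5) and 32.8 on NKG7 (26.2 to 40.5) at 2 h, and 36.6 (30.1 to 44.1) and 29.6 (23.8 to 36.4) at 4 h. MS4A1 barcodes at 4 h had 26.8 CPM on PRF1 (22.9 to 31.3) and 17.3 on NKG7 (14.1 to 20.9). The WC1 and MS4A1 intervals at 4 h thus overlapped for PRF1 but not for NKG7. CD8B barcodes, 91 at 2 h and 47 at 4 h, had 46.1 and 42.0 CPM on PRF1 and 27.1 and 31.9 on NKG7. CD4 barcodes had 34.5 CPM on PRF1 (29.1 to 40.6) at 2 h and 34.0 (28.4 to 40.7) at 4 h, and 19.1 and 19.7 on NKG7. At 8 h the WC1 and MS4A1 intervals overlapped, with 24.9 CPM on PRF1 (10.0 to 51.2) against 18.9 (12.7 to 26.3) and 16.0 against 10.5 on NKG7. The WC1 gate was not the same in each library. ENSBTAG00000050603 had a row at 2 h, 4 h and 8 h, ENSBTAG00000052355 at 2 h and 4 h, and ENSBTAG00000049861 at 4 h only. It held 367, 301 and 74 barcodes, so its values are not comparable between these times.

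**Figure D5:**
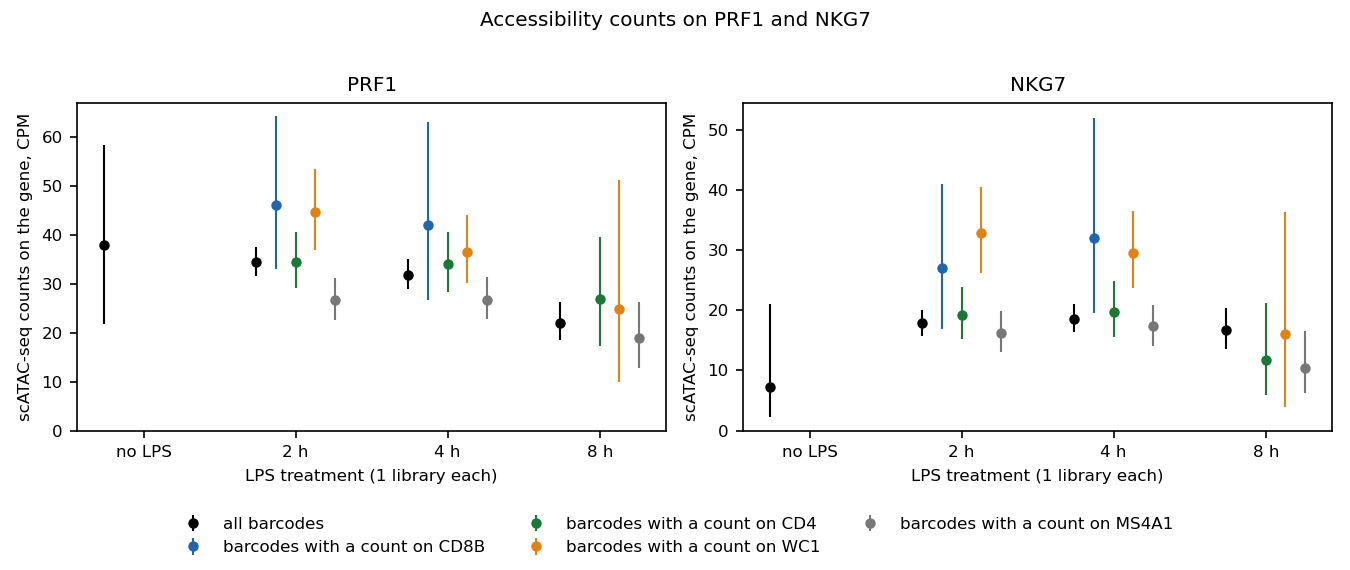
CPM of counts on PRF1 and NKG7 in the scATAC-seq libraries, for all barcodes and for barcodes of the LPS libraries with a count on CD8B, CD4, WC1 or MS4A1, with 95% Poisson intervals from the counts divided by 2 as bars. At 2 h WC1 barcodes had 44.6 CPM on PRF1 and MS4A1 barcodes 26.7.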

How the data were processed

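The scRNA-seq tables that the authors deposited hold raw counts of UMIs for each gene in each barcode, from Cell Ranger and the ARS-UCD1.2 (bosTau9) genome. The deposited scATAC-seq tables hold counts on genes, and how they were counted is not given in the sources used here. No value was normalized by them, and 0 columns of other samples were present.

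Barcodes were kept that had between 200 and 3000 genes, 200 or more UMIs, and less than 20% of UMIs on 13 mitochondrial genes. A gate is 1 or more UMIs of its gene, and gates overlap: 6, 9, 2 and 1 NCR1+ CD3E-zero cells (no LPS, 2 h, 4 h and 8 h) and 43, 42, 29 and 14 CD8B+ cells were also in another. MS4A1+ and CD14+ cells were taken without CD3E and NCR1. UMIs were summed per gate and library, scaled to 1000000 and compared as log2 ratios with a pseudocount of 1, past 2-fold being counted for genes with at least 20 UMIs over both libraries. The median of the 6 granule genes took all 6. Thinning drew 1000 UMIs per cell without replacement, averaged over 20 draws, and left out shallower cells. No test was made. Python 3.11.15, numpy 2.4.6, scipy 1.17.1 and pandas 2.3.3 were used, and edgeR 4.0.16 (TMM) and DESeq2 1.42.0 (size factors) in R 4.3.3 gave scaling alternatives only. The ratio step was tested on simulated data. The granule genes, lists and gates were chosen with earlier results of these data known. Named genes are the 6, from each list up to 4 with the largest log2 ratio in NCR1+ CD3E-zero cells among those with 20 UMIs in each comparison and past 2-fold in at least 1, and for each granule gene the 3 of 9437 genes with at least 200 UMIs whose profile was most like it. The genes of the lists named in CD8B+ cells, and IFNG, were picked after their values were seen. RefSeq gene names come from another assembly, so no coordinates are given, and no sequence was used.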

Additional observations from a re-analysis of the deposited data

Results flagged for a closer look

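The GNLY ratio had opposite signs in NCR1+ CD3E-zero and WC1+ cells at each time, among cells within the gene limit. Its log2 ratio to no LPS was higher in NCR1+ CD3E-zero than in WC1+ cells by 2.03, 1.40 and 1.92 at the 3 times, with the former above 0 and the latter below 0 each time. The difference was not tested, since each treatment had 1 library. Of the 91 GNLY UMIs of WC1+ cells without LPS, 82 came from 1 cell, and without the top cell of each library the WC1+ ratios were 1.34, 1.39 and 0.58. Without the upper limit on genes the WC1+ ratio at 4 h was 0.63. The NCR1+ CD3E-zero ratio at 8 h was 0.11 (-0.14 to 0.35), and -0.28 without the top cell of each library.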

How the results depend on the processing

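No paired analysis was possible because each treatment had 1 library per assay, and leaving out a replicate was not possible for the same reason. Leaving out the top cell, the counts past 2-fold in CD8B+ cells under the alternatives and the scATAC-seq gates by CD8B, CD4, WC1 and MS4A1 were chosen after seeing the data. The cause of each change was not tested.

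Of the 72 log2 ratios of the 6 genes in 4 gates, all 72 kept their sign with TMM factors, size factors, at least 1000 UMIs per cell or a pseudocount of 5, and 70 with gates that used further CD3 genes. The number was 68 without cells holding MS4A1, CD79A or CD14, 62 after thinning, 61 with cells weighted equally, 59 with exclusive gates, 58 without the top cell, and 52 both without an upper limit on genes and with at least 2 UMIs of the gate gene. Among ratios past 2-fold, those that turned were GZMB in CD8B+ cells at 8 h without the upper limit (0.075), and so CTSW in CD4+ cells at 4 h (0.33) and PRF1 in WC1+ cells at 2 h (0.30). GNLY in WC1+ cells turned at 2 h with exclusive gates (1.49), at least 2 gate UMIs (2.50), thinning (0.25), equal weights (0.35) and no top cell (1.34), and at 8 h, except for thinning, with the same settings (1.04, 2.21, 0.050 and 0.58).

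In NCR1+ CD3E-zero cells, at least 2 NCR1 UMIs left 8, 27, 33 and 21 cells, in which 2, 1 and 1 genes were past 2-fold higher at 2 h, 4 h and 8 h. The median of the 6 at 4 h was then 1.68, 3 genes were highest in this gate without LPS, and the share of cells with at least 3 genes was 25.0% without LPS and 70.4% at 2 h. Thinning made these shares 12.1%, 13.3%, 10.0% and 10.5%, by construction. A fold of 1.5 gave 1 gene higher at 2 h, 1 at 4 h and 1 lower at 8 h. In CD8B+ cells 1 gene was past 2-fold higher at 2 h without the upper limit, with at least 2 gate UMIs, without cells holding MS4A1, CD79A or CD14, with thinning, with equal weights and at a fold of 1.5. At 4 h 2 were higher under the same settings except no upper limit and thinning. A fold of 1.5 also gave 4 lower at 2 h and 1 lower at 4 h, and without the upper limit 2 were lower at 8 h. Without a minimum of 20 UMIs, 35.0%, 34.3% and 37.6% of genes in NCR1+ CD3E-zero cells and 4.12%, 5.27% and 9.04% in CD8B+ cells were past 2-fold, against 8.33%, 9.07% and 7.96%, and 2.52%, 3.02% and 3.91%, with it.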
